A study of Homo sapiens with 18 samples.

Results

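The genes described here are 10 genes of amino acid transport, chosen by symbol from the 19849 genes of the expression table. SLC7A1 carries cationic amino acids, and SLC3A2, SLC7A5 and SLC3A1 are subunits of 2-chain exchangers. SLC1A5, SLC38A2, SLC38A4, SLC6A15 and SLC6A14 carry neutral amino acids, some of them cationic ones as well. SLC1A1 carries the acidic amino acids glutamate and aspartate. All 10 genes were found, each read by 1 probe set. They were picked because earlier results on these arrays had shown that several of them changed strongly upon epithelial-mesenchymal transition (EMT) in a single cell line, so the values of that comparison are given for them as a description and without a test. The arrays are of A549, HCC827 and NCI-H358 cells, human non-small cell lung cancer lines, as untreated parental cells and as mesenchymal derivatives, with 3 arrays in each of 6 groups and 18 in all. The derivatives had grown for 3 weeks with 2 ng/ml TGFβ, a cytokine that induces EMT in epithelial cells, and were moved to medium without it on the day before lysis. The labels give this time for all lines, while the methods give ranges of weeks that differ by line. All groups grew in RPMI medium with 10% FBS and 4 mM glutamine. The study describes the replicates as separate biological samples made at the same time, so p values here measure the spread between such samples. The values are log2 levels, so a difference of 1 is a 2-fold difference, and the 3 arrays per group limit their precision.

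Cells take up amino acids through carriers of several families that differ in substrate and driving force. Sodium-coupled carriers such as SLC1A1, SLC1A5 and the SLC38 and SLC6 members draw amino acids in against a gradient, or, for SLC1A5, swap one neutral amino acid for another. Exchangers of the SLC7 light chain type cannot reach the cell surface alone: they are bound by a disulfide bridge to a heavy chain, SLC3A2 (also called CD98 or 4F2hc) or SLC3A1 (rBAT), which does not itself form the path of the substrate. SLC7A5 with SLC3A2 brings in leucine and other large neutral amino acids in exchange for glutamine, and is often abundant in tumor cells. In bulk RNA, fewer cells with a transcript and less of it per cell cannot be told apart.

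Marker genes moved with the labels of state. Of 5 epithelial marker genes (CDH1, EPCAM, KRT8, KRT18 and KRT19), 5 fell in each line, and of 5 mesenchymal ones (CDH2, VIM, ZEB1, SNAI1 and FN1), 5 rose in each line (limma, largest adjusted p = 0.00202, for SNAI1 in A549). Lung lineage genes were uneven: the mean log2 level of NKX2-1 was 3.67 in parental A549 cells against 9.18 and 8.62 in parental HCC827 and NCI-H358 cells, SFTPB lay between 5.57 and 5.84 in all groups, and NAPSA reached 10.87 only in parental HCC827 cells. The blood and endothelial markers PTPRC, PECAM1 and CD3E had group means between 2.83 and 5.61, and the largest of their changes was 0.41, of PECAM1 in HCC827. Array medians ranged from 6.31 to 6.47, and the standard deviation of log2 differences between arrays of 1 group was 0.163 to 0.282 over all genes.

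Upstream sequence is shown for 4 of the 10 genes: SLC7A5 and SLC3A2, whose levels were lower in mesenchymal cells of all 3 lines, and SLC1A1 and SLC38A4, whose levels moved apart between lines. RefSeq windows (GRCh38.p14) were matched for 8 of the 10 genes, 12 windows in all, and each sequence is the 250 bases before a transcription start, read 5′ to 3′ on the strand of the gene. Capitals mark a match to a searched motif.
SLC7A5, chr16:87869508-87869757, minus strand: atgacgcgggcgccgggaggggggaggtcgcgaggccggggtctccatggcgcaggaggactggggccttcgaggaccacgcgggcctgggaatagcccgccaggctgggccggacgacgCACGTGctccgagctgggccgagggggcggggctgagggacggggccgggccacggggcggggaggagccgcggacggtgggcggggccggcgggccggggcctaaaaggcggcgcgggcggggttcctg
SLC3A2, chr11:62855859-62856108, plus strand: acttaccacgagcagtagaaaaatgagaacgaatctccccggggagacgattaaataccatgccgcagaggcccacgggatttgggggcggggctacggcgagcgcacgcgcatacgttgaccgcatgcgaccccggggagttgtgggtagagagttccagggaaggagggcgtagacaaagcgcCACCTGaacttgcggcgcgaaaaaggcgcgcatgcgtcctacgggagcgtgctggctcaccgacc
SLC1A1, chr9:4490218-4490467, plus strand: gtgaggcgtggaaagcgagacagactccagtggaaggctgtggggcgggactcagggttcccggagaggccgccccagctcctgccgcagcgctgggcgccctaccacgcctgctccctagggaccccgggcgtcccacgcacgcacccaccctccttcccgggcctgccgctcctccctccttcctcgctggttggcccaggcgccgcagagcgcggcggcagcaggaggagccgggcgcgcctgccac
SLC38A4, chr12:46825998-46826247, minus strand: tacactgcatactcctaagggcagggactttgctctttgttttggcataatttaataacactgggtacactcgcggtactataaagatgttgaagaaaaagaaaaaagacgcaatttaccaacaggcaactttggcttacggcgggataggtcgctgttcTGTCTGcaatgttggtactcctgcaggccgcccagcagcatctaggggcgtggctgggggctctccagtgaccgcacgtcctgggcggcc
The motifs were searched on both strands. TGATGNAA is bound by ATF4 with a C/EBP partner when amino acids run short. CACGTG is the E-box of MYC and related factors, CACCTG is an E-box of the kind bound by ZEB and SNAI factors, and CAGCTG is a further E-box. SMAD factors bind CAGACA and the palindrome GTCTAGAC, and TGACTCA is bound by AP-1. The SLC7A5 window held CACGTG, beginning 130 bases before the start, which 6.34% of all 35116 windows held. The SLC3A2 window shown, 1 of several of this gene, held CACCTG, beginning 65 bases before the start (17.5% of all windows). No other SLC3A2 window held it. The SLC38A4 window held CAGACA on the opposite strand, beginning 90 bases before the start (13.6%). The SLC1A1 window held none of these letters. Among the other windows of the 10 genes, TGATGNAA (3.14% of all windows) was found in 1, of a downstream start of SLC1A5, TGACTCA (4.20%) in 1 further window of SLC3A2 and in that of SLC6A14, CACGTG in 1 of SLC1A5 and CACCTG in that of SLC38A2. CAGCTG (14.0%) and GTCTAGAC (0.182%) were in none of the 12, and no match overlapped another. The GC content was 79.6% for SLC7A5, 61.6% for SLC3A2, 74.4% for SLC1A1 and 51.6% for SLC38A4, with a median of 58% over all windows. These are matches of letters, not binding sites.

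**Figure D1:**
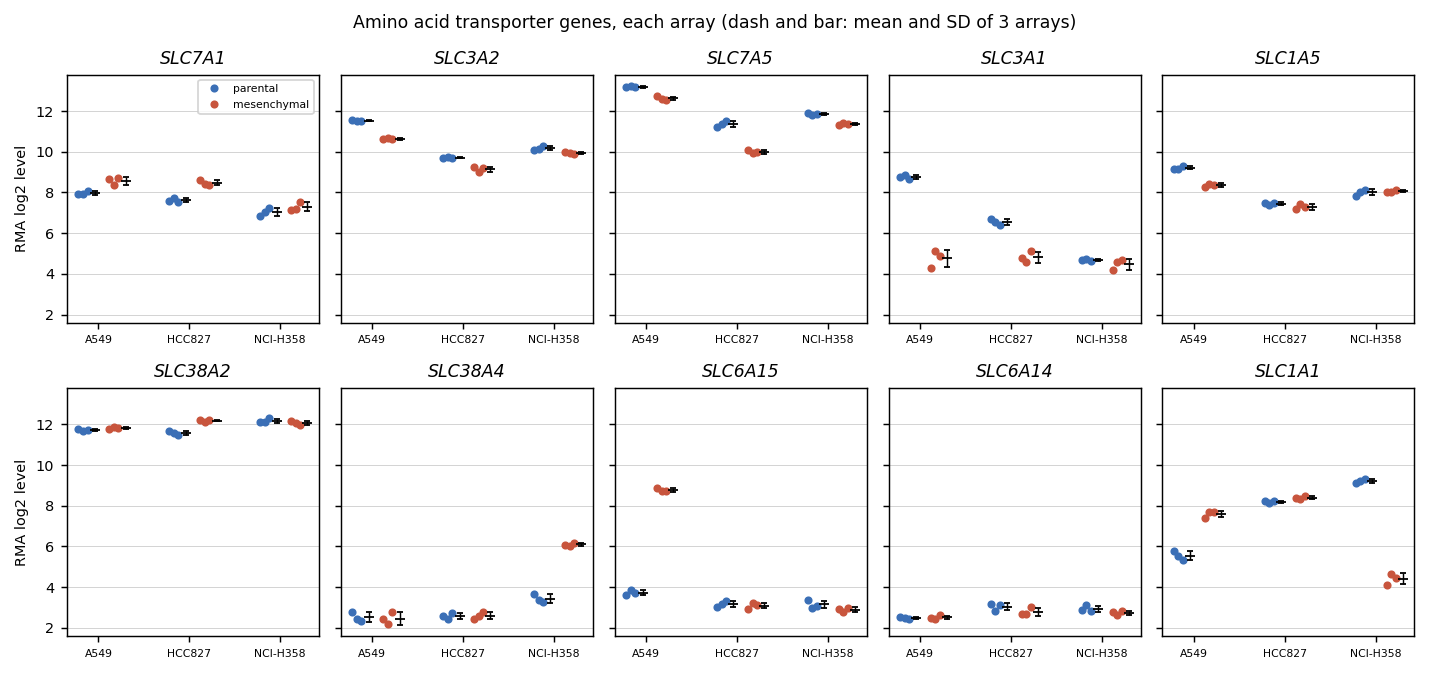
RMA log2 level of the 10 genes (vertical axis) in parental (blue) and mesenchymal (red) cells of the 3 lines (horizontal axis). Each point is 1 array, and the black dash and bar are the mean and SD of 3 arrays. SLC6A15 stood out in mesenchymal A549 cells, at 8.71 to 8.86, SLC38A4 in mesenchymal NCI-H358 cells, at 6.02 to 6.20, and SLC1A1 was low in mesenchymal NCI-H358 cells, at 4.13 to 4.65.

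Counted at the thresholds that the study used, a limma adjusted p below 1e-05 with more than a 5-fold change, 2 of the 10 genes were called in A549, where 1.9% of all genes were called. These were SLC6A15, higher (1.17% of all genes), and SLC3A1, lower (0.736%). In HCC827 it was 0 of 10, against 2.95% of all genes, 1.32% higher and 1.63% lower (limma, 6 of 10 at an unadjusted p under 0.05, against 50.6% of all genes, and 0 of 10 by the methods' t-test at the study's thresholds, which called 1 gene of 19849). In NCI-H358 it was 2 of 10, against 2.17%. These were SLC38A4, higher (0.811% of all genes), and SLC1A1, lower (1.36%). At an adjusted p below 0.05 with more than a 2-fold change, the counts were 3, 2 and 2 of 10, against 8.02%, 11.5% and 9.38% of all genes. Nothing is read from these counts, since the genes were chosen on this comparison.

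The cationic carrier SLC7A1 transports arginine and lysine. In A549 its log2 level was 7.91, 7.92 and 8.08 on the parental arrays and 8.65, 8.35 and 8.69 on the mesenchymal ones, a difference of 0.59 (standard error 0.12), or 1.51-fold. In HCC827 it was 7.59, 7.74 and 7.56 in parental and 8.61, 8.43 and 8.39 in mesenchymal cells, a difference of 0.84. In both lines every mesenchymal array was above every parental array. In NCI-H358 the arrays overlapped, at 6.84, 7.05 and 7.25 in parental and 7.15, 7.21 and 7.54 in mesenchymal cells, a difference of 0.25. From low to high, the group means ran from parental and mesenchymal NCI-H358, which overlapped, through parental HCC827 and parental A549 to mesenchymal HCC827 and mesenchymal A549, which overlapped as well.

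SLC3A2 and SLC7A5, the chains of the leucine exchanger LAT1, were both lower in mesenchymal than in parental cells of all 3 lines, and they were the 2 of the 10 genes of which the arrays did not overlap in that direction in any line (7.62% of all genes). For 0 of the 10 were the mesenchymal arrays above the parental ones in all 3 lines (5.3% of all genes). The log2 level of SLC3A2 in A549 was 11.56, 11.50 and 11.52 in parental and 10.61, 10.67 and 10.61 in mesenchymal cells, a difference of -0.90 (standard error 0.07), or 1.86-fold. In HCC827 it was 9.69, 9.75 and 9.72 against 9.25, 9.00 and 9.19, a difference of -0.57. In NCI-H358 it was 10.08, 10.16 and 10.28 against 10.00, 9.94 and 9.90, a difference of -0.22, the smallest of the 3. The arrays of neighbouring groups of SLC3A2 did not overlap anywhere in the order of the 6 group means, which ran from mesenchymal HCC827 at 9.15 to parental A549 at 11.53, so that the parental state was above the mesenchymal one within each line and the lines kept apart.

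For SLC7A5 the change was largest in HCC827, where the log2 level was 11.20, 11.34 and 11.51 in parental and 10.09, 9.92 and 9.97 in mesenchymal cells, a difference of -1.36 (standard error 0.08), or 2.57-fold. In A549 it was 13.17, 13.24 and 13.16 against 12.73, 12.59 and 12.55, a difference of -0.57. In NCI-H358 it was 11.90, 11.78 and 11.86 against 11.33, 11.41 and 11.35, a difference of -0.48. Mesenchymal A549 cells, at a mean of 12.62, thus stood above the parental cells of the other lines. Parental HCC827 and mesenchymal NCI-H358 cells, at 11.35 and 11.36, were the only neighbours in the order whose arrays overlapped.

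SLC3A1 is the heavy chain that, with SLC7A9, takes up cystine and dibasic amino acids in kidney and intestine. It showed the widest parental range of the subunit genes: its log2 level was 8.76, 8.85 and 8.67 in parental A549, 6.68, 6.56 and 6.38 in parental HCC827, and 4.66, 4.71 and 4.64 in parental NCI-H358 cells. The mesenchymal arrays read 4.31, 5.11 and 4.87 for A549, 4.76, 4.58 and 5.11 for HCC827, and 4.18, 4.57 and 4.67 for NCI-H358. The differences were -4.00 (standard error 0.17) in A549, or 15.9-fold, -1.72 in HCC827, or 3.30-fold, and -0.20 in NCI-H358, where the arrays overlapped. The arrays of neighbouring groups overlapped among the 3 mesenchymal groups and parental NCI-H358 cells, so SLC3A1 levels that stood apart among the parental lines lay together in the mesenchymal ones. Those 4 groups had mean percentiles of 22.0 to 27.4 among all genes of an array. Their means, 4.47 to 4.82, lay within the range of the blood and endothelial markers (2.83 to 5.61). No order is read among them, and the sizes of the fold changes depend on that floor.

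The glutamine carrier SLC1A5 (ASCT2) differed between states in A549 only as far as arrays that did not overlap: 9.17, 9.16 and 9.30 in parental against 8.25, 8.42 and 8.38 in mesenchymal cells, a log2 difference of -0.86 (standard error 0.08), or 1.82-fold. In HCC827 the parental arrays lay between 7.39 and 7.49 and the mesenchymal ones between 7.17 and 7.43, a difference of -0.17. In NCI-H358 they lay between 7.84 and 8.13 and between 8.01 and 8.11, a difference of 0.05. SLC38A2 (SNAT2), a sodium-coupled carrier of alanine, serine and glutamine that cells raise when amino acids run short, had high levels throughout, between 11.49 and 12.30 on the 18 arrays. Its largest difference was in HCC827, 11.69, 11.55 and 11.49 in parental against 12.20, 12.14 and 12.20 in mesenchymal cells, or 0.60 (standard error 0.07), 1.52-fold. In A549 it was 0.11, with arrays that just failed to overlap, and in NCI-H358 it was -0.11, with arrays that overlapped.

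SLC38A4 (SNAT4), a carrier of small neutral amino acids known mainly from liver, was near the bottom of the scale in A549 and HCC827 cells of both states, between 2.18 and 2.79 on 12 arrays, at mean percentiles 0.749 to 1.32. Its NCI-H358 values were 3.69, 3.40 and 3.25 for parental and 6.08, 6.02 and 6.20 for mesenchymal cells, a log2 difference of 2.66 (standard error 0.15), or 6.30-fold. Its mean percentile there went from 9.49 to 46.0. Both NCI-H358 groups stood above the other groups without overlap, while the 4 groups of A549 and HCC827 overlapped from one neighbour to the next. Levels this low on an array cannot be told from background. The parental NCI-H358 mean of 3.44 also lay within the range of the blood and endothelial markers (2.83 to 5.61). No order is therefore read among parental NCI-H358 cells and the other lines, and the size of the 6.30-fold difference depends on that floor.

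SLC6A15 (B0AT2), a sodium-coupled carrier of branched-chain amino acids and proline known mainly from brain, stood out in mesenchymal A549 cells. In A549 its log2 level was 3.63, 3.84 and 3.73 in parental and 8.86, 8.71 and 8.72 in mesenchymal cells, a difference of 5.03 (standard error 0.11), or 32.7-fold. The parental level was near the bottom of the scale, so the size of this fold change depends on that floor, and SLC6A15 was among the genes removed when dim probe sets were left out. In HCC827 the parental arrays lay between 3.02 and 3.30 and the mesenchymal ones between 2.95 and 3.22, and in NCI-H358 between 3.00 and 3.36 and between 2.77 and 3.00. The arrays overlapped in both. The mean percentile in mesenchymal A549 cells was 78.7, against 13.4 in parental A549 cells and 3.42 to 6.91 in the groups of the other lines.

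SLC6A14, a carrier of both neutral and cationic amino acids, was near the bottom of the scale in every group. Its 18 values lay between 2.45 and 3.17, and its mean percentiles between 0.464 and 5.57. The differences between states were 0.01 for A549, -0.26 for HCC827 and -0.20 for NCI-H358 cells, and only in NCI-H358 did the arrays not overlap. Whether SLC6A14 was transcribed at all cannot be read from these levels.

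SLC1A1 (EAAT3), the carrier of glutamate, aspartate and cysteine, was the one member whose levels moved strongly in opposite directions. In NCI-H358 its log2 level was 9.14, 9.21 and 9.32 in parental and 4.13, 4.65 and 4.47 in mesenchymal cells, a difference of -4.81 (standard error 0.13), or 28.0-fold. In A549 it was 5.78, 5.52 and 5.34 in parental and 7.42, 7.71 and 7.68 in mesenchymal cells, a difference of 2.06, or 4.16-fold, the other way. In HCC827 it was 8.22, 8.13 and 8.22 against 8.37, 8.34 and 8.49, a difference of 0.21, with arrays that did not overlap. The order of the parental lines was A549, HCC827 and NCI-H358 from low to high, and that of the mesenchymal lines NCI-H358, A549 and HCC827. The arrays of neighbouring groups did not overlap anywhere in the order of the 6 groups. NCI-H358 cells thus went from the highest to the lowest of the 6 group means. That lowest mean and the parental A549 mean of 5.55 lay within the range of the blood and endothelial markers (2.83 to 5.61). No order is read between these groups, and the sizes of the 28.0-fold and 4.16-fold differences depend on that floor.

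**Figure D2:**
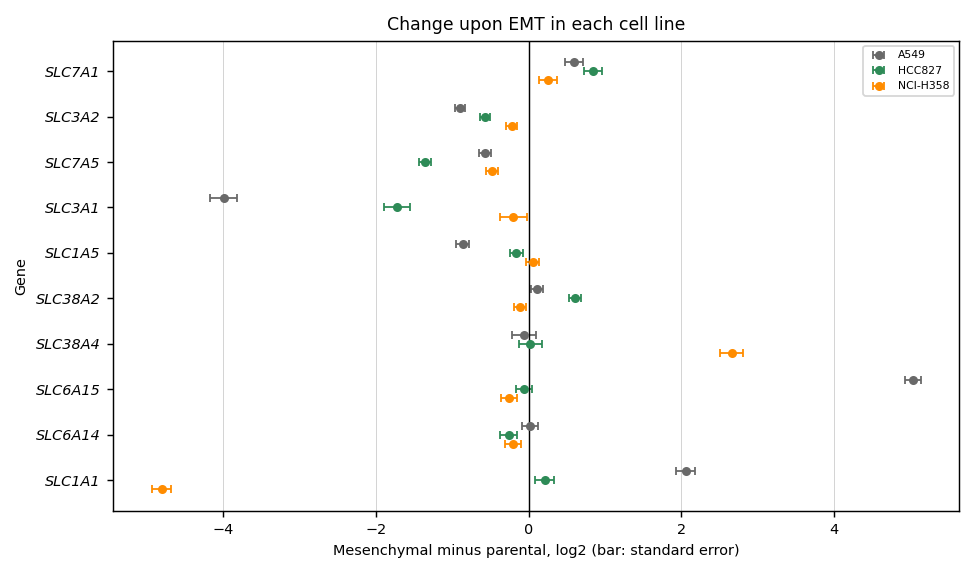
Mesenchymal minus parental log2 level (horizontal axis) of the 10 genes (vertical axis) in A549 (gray), HCC827 (green) and NCI-H358 (orange) cells. Points are differences of means of 3 arrays and bars their limma standard errors. The largest differences, 5.03 for SLC6A15, -4.00 for SLC3A1, -4.81 for SLC1A1 and 2.66 for SLC38A4, were above 5-fold, each in 1 line.

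The median size of the log2 difference between states over the 10 genes was 0.73 for A549, 0.42 for HCC827 and 0.24 for NCI-H358 cells, beside 0.21, 0.22 and 0.19 over all genes. The arrays of parental and mesenchymal cells did not overlap for 8, 6 and 5 of the 10 genes, against 52.4%, 51.2% and 51.6% of all genes. The difference was above 5-fold for 2, 0 and 2 genes, against 1.9%, 2.96% and 2.17% of all genes, and no gene was above 5-fold in more than 1 line. With each array of a line left out in turn, the log2 difference ranged from 4.98 to 5.08 for SLC6A15 in A549, from -4.17 to -3.77 for SLC3A1 in A549, from -4.93 to -4.66 for SLC1A1 in NCI-H358 and from 2.56 to 2.78 for SLC38A4 in NCI-H358.

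The lines were next compared by the mean level of their parental and mesenchymal arrays. The error of this mean is independent of that of the difference between states, but a change in 1 line also moves the mean of that line. SLC3A1, SLC38A4, SLC6A15 and SLC1A1, whose levels differed by more than 5-fold between states in a line, carry that difference into the mean, and their line means are given without a test. SLC6A14, near the bottom of the scale, is not tested either. The other genes were tested with limma over all genes. With all 10 genes counted, 8 differed between HCC827 and A549 at an adjusted p below 0.05, 10 between NCI-H358 and A549 and 8 between NCI-H358 and HCC827. Over all genes it was 64%, 65.4% and 59.2%, so most genes differ between these lines. With a difference above 2-fold as well, it was 6, 6 and 3 of 10, against 16.4%, 19% and 13.3% of all genes. With 1 array left out, the counts at an adjusted p below 0.05 were 7 to 8, 9 to 10 and 8. All these counts include the genes that are not tested here. Those with more than a 5-fold difference between states make up all 3 counted above 2-fold between NCI-H358 and HCC827. Nothing is read from any of these counts. The median difference over the 10 genes was -0.65, -0.89 and 0.08 in the 3 comparisons, and over all genes -0.05, -0.02 and 0.02.

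SLC7A5, SLC3A2 and SLC1A5 shared 1 order in this comparison, with A549 highest, NCI-H358 next and HCC827 lowest, and the arrays of the lines did not overlap in either state. The mean level of SLC7A5 was 12.91, 11.61 and 10.67 in that order, that of SLC3A2 11.08, 10.06 and 9.43, and that of SLC1A5 8.78, 8.03 and 7.37. The SLC7A5 mean of HCC827 includes its 2.57-fold lower mesenchymal level. Parental means of SLC7A5 alone were 13.19 in A549, 11.85 in NCI-H358 and 11.35 in HCC827. For HCC827 minus A549 the log2 difference was -2.23 for SLC7A5 (limma adjusted p = 5.67e-16), -1.65 for SLC3A2 (adjusted p = 7.90e-15) and -1.41 for SLC1A5 (adjusted p = 1.02e-12), which are 4.70-fold, 3.13-fold and 2.65-fold lower levels in HCC827. NCI-H358 was above HCC827 by 0.93, 0.63 and 0.66 (limma, largest adjusted p = 3.56e-08). Over the 18 arrays Pearson's r was 0.97 between SLC3A2 and SLC1A5, 0.96 between SLC3A2 and SLC7A5 and 0.90 between SLC7A5 and SLC1A5, the highest values among all pairs of the 10 genes. These 18 points share only 3 cell lines and 2 states, so the correlations describe the same differences between lines again.

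SLC7A1 was lower in NCI-H358 than in A549 (log2 difference -1.10, limma adjusted p = 3.64e-09) and than in HCC827 (-0.88, adjusted p = 9.09e-08). Between HCC827 and A549 it differed by -0.22 (limma adjusted p = 0.0356), and this call was lost without any 1 of 7 arrays: parental HCC827 replicate 1 or 3, mesenchymal HCC827 replicate 2 or 3, parental A549 replicate 3, or mesenchymal A549 replicate 1 or 3 (values of -0.21 to -0.19, limma adjusted p = 0.0658 to 0.0885). NCI-H358 exceeded A549 in SLC38A2 by 0.35 (limma adjusted p = 1.23e-05) and HCC827 by 0.24 (adjusted p = 0.000619). Between HCC827 and A549 the SLC38A2 difference of 0.11 did not pass (adjusted p = 0.0826, 95% interval -0.003 to 0.22).

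For SLC6A15, SLC38A4, SLC3A1 and SLC1A1 the line means are a description. The mean of SLC6A15 over both states was 6.25 for A549, 3.13 for HCC827 and 3.02 for NCI-H358 cells, while its parental means were 3.74, 3.16 and 3.15, so the gap between A549 and the others lay mainly in mesenchymal cells. SLC38A4 had means of 2.49, 2.59 and 4.77 in the same order of lines, and parental means of 2.52, 2.58 and 3.44. SLC3A1 had means of 6.76, 5.68 and 4.57, and its parental means of 8.76, 6.54 and 4.67 lay further apart. SLC1A1 had means of 6.58, 8.30 and 6.82, which hide the opposite directions in A549 and NCI-H358.

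**Figure D3:**
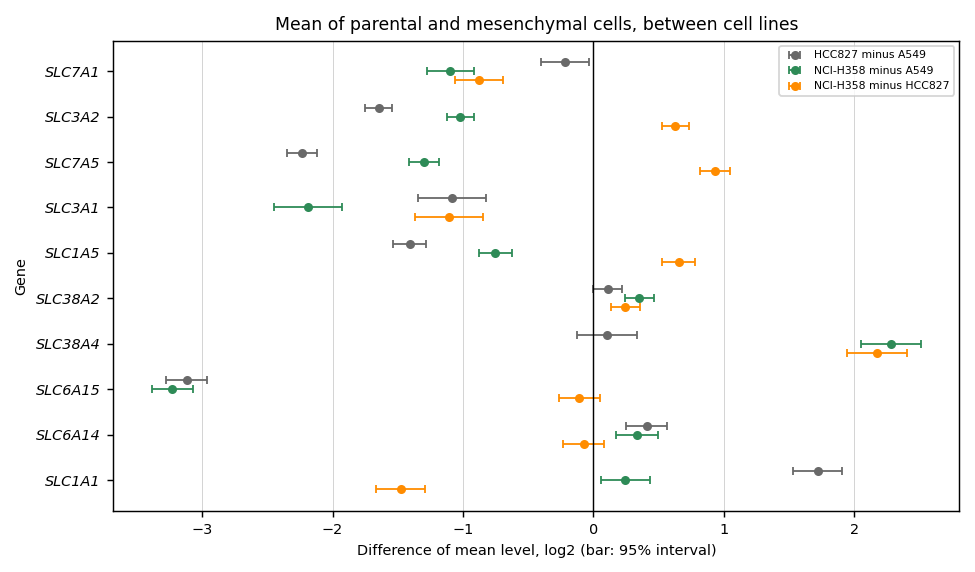
Difference between cell lines in the mean log2 level of parental and mesenchymal arrays (horizontal axis) for the 10 genes (vertical axis). Points are limma contrasts over 6 arrays of each line and bars their 95% intervals. SLC7A5, SLC3A2 and SLC1A5 lay below 0 for HCC827 minus A549 (-2.23, -1.65 and -1.41) and above 0 for NCI-H358 minus HCC827. The values of SLC3A1, SLC38A4, SLC6A15 and SLC1A1 include their differences between states. Intervals of these genes and of SLC6A14 are drawn but not read as tests.

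The remaining genes of amino acid transport, a list of 46 by gene family and substrate, were counted next, and 43 of them were in the table. The strongly changed genes had been taken from this family to make up the 10, so the remainder is not a fair sample of it. At the study's thresholds limma called 0 of the 43 in each line (18, 21 and 17 at an unadjusted p under 0.05 in the order A549, HCC827, NCI-H358, beside 49.4%, 50.6% and 46.6% of all genes). The methods' t-test at the study's thresholds also called 0 of the 43 in each line, and 0, 1 and 0 of all genes. By limma these thresholds called 1.9%, 2.95% and 2.17% of all genes. At an adjusted p below 0.05 with more than a 2-fold change, none rose and 3 fell in A549, 2 rose and none fell in HCC827, and none rose and 1 fell in NCI-H358. All genes called higher were 4.15%, 4.89% and 3.96%, and all called lower 3.87%, 6.58% and 5.42%. The median log2 change of the 43 genes was 0.03, 0.12 and 0.04, beside -0.02, 0.01 and 0.02 over all genes.

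Among the light chains that pair with SLC3A2, SLC7A11 and SLC7A7 changed in opposite directions in A549 and in the other lines. SLC7A11 (xCT), which takes up cystine in exchange for glutamate, had log2 levels of 11.98, 12.02 and 11.95 in parental and 10.40, 10.52 and 10.45 in mesenchymal A549 cells. It fell by 1.52 there (standard error 0.11, limma adjusted p = 5.01e-09) and rose by 0.33 in HCC827 (adjusted p = 0.0187) and by 0.43 in NCI-H358 (adjusted p = 0.00392). The change in HCC827 was 1.86 above that in A549 (limma, adjusted p = 4.22e-08), and that in NCI-H358 1.95 above it (adjusted p = 2.32e-08).

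SLC7A7 (y+LAT1), an exchanger of cationic against neutral amino acids, had log2 levels of 8.69, 8.47 and 8.40 in parental and 7.47, 7.08 and 7.35 in mesenchymal A549 cells, and fell by 1.22 (limma adjusted p = 7.39e-07). It rose by 0.91 in HCC827 (adjusted p = 1.56e-05) and by 0.76 in NCI-H358 (adjusted p = 0.000134). SLC7A6 (y+LAT2), of related function, fell by 0.57 in A549 (adjusted p = 0.00162) and rose by 0.42 in NCI-H358 (adjusted p = 0.014), and its value in HCC827 was 0.30 (adjusted p = 0.0759). The lower SLC3A2 level of mesenchymal cells in all 3 lines therefore stood beside light chain transcripts that were lower (SLC7A5), or lower in A549 and higher in NCI-H358 (SLC7A11, SLC7A7 and SLC7A6). SLC7A8 and SLC7A10, the other partners of SLC3A2, had mean levels between 3.73 and 4.70, and no adjusted p below 0.05 in any line.

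SLC7A9 is the light chain partner of SLC3A1. Its log2 level in A549 was 4.98, 5.24 and 4.80 in parental and 5.51, 5.38 and 5.42 in mesenchymal cells, a rise of 0.43 (limma adjusted p = 0.0171) where SLC3A1 was lower by 15.9-fold. In HCC827 SLC7A9 fell by 0.59 (adjusted p = 0.00182), and in NCI-H358 its value was 0.12 (adjusted p = 0.571). The change in HCC827 differed from that in A549 by -1.02 (adjusted p = 0.000379). The group means of SLC7A9, 4.29 to 5.44, lay within the range of the blood and endothelial markers (2.83 to 5.61). Its signal may therefore be background, which limits what can be read from these changes. SLC7A13, another partner of SLC3A1, had mean levels of 2.82 to 3.11 and no adjusted p below 0.05 in any line.

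Outside the light chains, the taurine carrier SLC6A6 fell in A549, by 1.39 (limma adjusted p = 8.15e-11), and in NCI-H358, by 1.41 (adjusted p = 6.31e-11), while in HCC827, at -0.10, it did not pass (adjusted p = 0.282). SLC1A4 (ASCT1), a carrier of alanine, serine and cysteine and a relative of SLC1A5, rose in HCC827, where its log2 level was 4.62, 5.24 and 4.87 in parental and 6.84, 6.81 and 7.00 in mesenchymal cells, a change of 1.98 (limma adjusted p = 1.84e-09). It fell by 0.82 in A549 (adjusted p = 9.52e-05). The glutamate carrier SLC1A3 (EAAT1) rose in HCC827, from 4.61, 4.69 and 5.06 to 5.99, 6.03 and 6.98, a change of 1.55 (limma adjusted p = 3.87e-06), or 1.22 without the highest of those arrays. In A549 and NCI-H358 its values were 0.02 and -0.13 (adjusted p = 0.961 and 0.676). The glutamate carriers SLC1A1 and SLC1A3 thus had their largest differences in different lines. All group means of SLC1A3 but that of mesenchymal HCC827 cells lay within the range of the blood and endothelial markers (2.83 to 5.61). So did the SLC1A4 means of parental HCC827 cells (4.91) and mesenchymal NCI-H358 cells (5.42). The sizes of the rises in HCC827 depend on that floor.

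**Figure D4:**
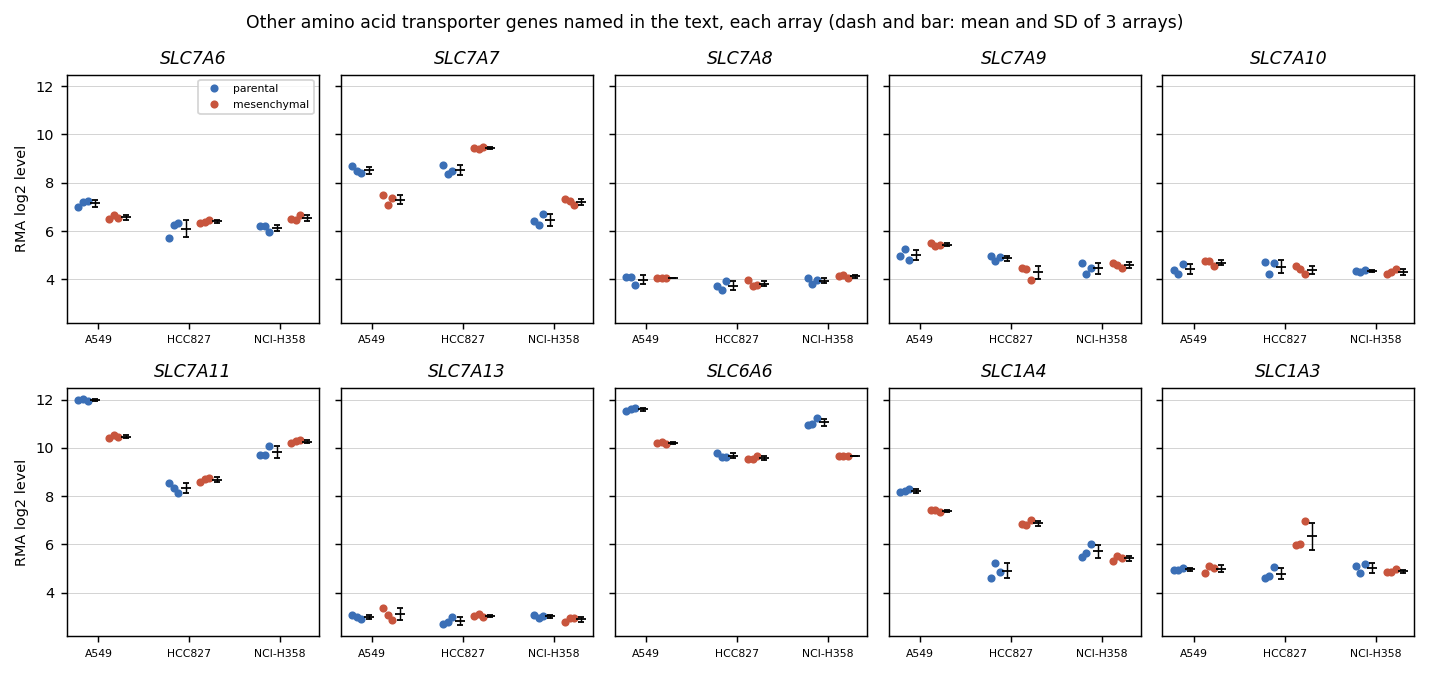
RMA log2 level (vertical axis) of 10 further transporter genes in parental (blue) and mesenchymal (red) cells of the 3 lines (horizontal axis). Each point is 1 array, and the black dash and bar are the mean and SD of 3 arrays. SLC7A11 and SLC7A7 fell in A549, by 1.52 and 1.22, and SLC1A4 and SLC1A3 rose in HCC827, by 1.98 and 1.55.

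The change upon EMT differed between HCC827 and A549 for 8 of the 43 genes, between NCI-H358 and A549 for 4 and between NCI-H358 and HCC827 for 4, at a limma adjusted p below 0.05 and a difference above 2-fold. Over all genes it was 13.4%, 12.7% and 11%. Without parental NCI-H358 replicate 1, the count for NCI-H358 and A549 was 7.

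The patterns of the 10 genes over the 18 arrays were also compared with those of 9059 genes whose group means spanned at least 1 on the log2 scale, by Pearson's r (9060 for SLC38A2 and SLC6A14). Genes most like SLC6A15 were DCDC5 (r = 0.996), CUX2 (0.992) and CDH10 (0.991). Most like SLC38A4 were LPHN3, MEGF10 and SCN2A (r = 0.989, 0.988 and 0.987), and most like SLC3A1 were TM4SF4, ABCC2 and MFF (0.983, 0.982 and 0.976). For SLC1A1 the values were lower, with SHROOM2 at 0.932, PLEKHA7 at 0.911 and CDCP1 at 0.888. The genes most like SLC7A5 were ATP5C1, KYNU and RPP38 (0.997, 0.994 and 0.983), and those most like SLC3A2 were FAM89A, SNRNP70 and KCTD9 (0.988, 0.982 and 0.981). For SLC1A5 they included SNX17 and CHCHD4 (0.981 and 0.974), and for SLC7A1 POPDC3, TMEM43 and RFTN1 (0.963, 0.958 and 0.957). For SLC38A2 and SLC6A14, whose own group means spanned 0.60 and 0.55, the highest values were 0.940 for FAM133A and 0.917 for ZER1. The 18 arrays share 3 lines and 2 states, so these values are a description.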

How the data were processed

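Of the 18 Affymetrix U133 Plus 2.0 arrays, the authors deposited RMA-normalized log2 values for 19849 genes with 1 probe set each. How that probe set was picked is not given in the sources used here. Each column bore the title of 1 sample, and 0 columns had none. Replicate numbers name the arrays of a group in the order of the records and pair none. No filter on low values was applied, so all 10 genes entered the fit. The genes, the transporter list and the tests were chosen with earlier results of these data known. Named beside the 10 genes were light chain partners of the SLC3 heavy chains, transporters called at the study thresholds, in each line the 3 largest changes of the others called above 2-fold, the markers, and for each of the 10 the 3 genes of highest Pearson's r, of which 1 is not reported here.

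A single limma 3.58.1 model (R 4.3.3) held all 6 groups without covariates, with empirical Bayes variances and Benjamini-Hochberg adjustment over all genes. Fold changes and 95% intervals come from this fit. Run on simulated data, it called 200 of 200 genes changed 8-fold in A549 among 19849, with 0 false calls. All other genes there had no difference between groups, unlike on the arrays, and the noise was independent. This run checks that the code works, not its error rate on these arrays. Alternatives were leaving out dim probe sets, centring of arrays, a trend of variance with intensity, separate fits, other thresholds, the methods' t-test and each array left out.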

Additional observations from a re-analysis of the deposited data

Results flagged for a closer look

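The change of some transporter genes upon EMT was not the same between lines (limma, contrast of changes). For SLC7A7 the change in HCC827 was 2.13 and in NCI-H358 1.98 above that in A549 on the log2 scale, and for SLC7A11 it was 1.86 and 1.95 above it. For SLC7A9, whose levels lay within the range of the blood and endothelial markers, HCC827 minus A549 gave -1.02. For SLC6A6 the change in HCC827 was 1.28 above that in A549, and that in NCI-H358 differed from HCC827 by -1.30. For SLC1A4 these differences were 2.79 and -2.27, and for SLC1A3 they were 1.53 and -1.68. Their sizes depend on parental HCC827 levels within the range of the blood and endothelial markers. Adjusted p values of these 11 differences were at most 0.000379.

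For SLC1A1 every mesenchymal array was above every parental array in A549 and in HCC827, and below every one in NCI-H358. The change in NCI-H358 differed from that in A549 by -6.87 and from that in HCC827 by -5.02. These differences were not tested, because SLC1A1 was chosen on them. No cause was tested for any of these values.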

How the results depend on the processing

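Over the alternatives run, 1326 values kept their side of the threshold or stayed within the spread of the arrays, and 30 did not. Many of the 1326 come from leaving out an array of a line outside the comparison. That leaves the difference unchanged and alters only the shared variance, so the tally is not a measure of stability. A switch of sign counted as a reversal only where the change or difference had been called, and none of those switched. Small changes could switch sign with 1 array left out, as for SLC38A4 in A549 (-0.22 to 0.08) and SLC1A5 in NCI-H358 (-0.03 to 0.11). With dim probe sets left out, 7 of the 10 genes remained in the fit, without SLC6A15, SLC38A4 and SLC6A14, and the study thresholds called 1 of them in A549 and 1 in NCI-H358, in place of 2 and 2. The methods' t-test, which the methods state as a general test while naming limma for the arrays, called 0 and 0 at those thresholds. At its own threshold, an unadjusted p under 0.05, with a fold change above 5, it called 2, 0 and 2 in the order A549, HCC827, NCI-H358. At an adjusted p below 0.05 with more than a 2-fold change, 2 of the 10 were called in HCC827 in place of 0, and of the other transporters 3, 2 and 1 in A549, HCC827 and NCI-H358 in place of 0. With arrays centred on their medians, 3 other transporters passed 2-fold in NCI-H358 in place of 1. With 1 array left out that count was 1 to 2, with 2 without NCI-H358 parental replicate 1 or 3 or mesenchymal replicate 1 or 2, and the count of other transporters whose change differed between NCI-H358 and A549 was 4 to 7, with 7 without NCI-H358 parental replicate 1. The cause was not tested. Centring also moved the change of SLC3A2 in A549 to -0.83 and that of SLC38A2 to 0.18. The difference of SLC38A2 between HCC827 and A549 passed with an intensity trend (adjusted p = 0.0279) and without parental HCC827 replicate 3 (adjusted p = 0.048). No paired analysis was possible because the labels give no replicate numbers; those used here only name the arrays of a group in the order of the records. A single probe set stands for each gene, and levels near the bottom of the scale, as for SLC6A14, limit what can be read.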
